A study of Gallus gallus with 4 samples.

Results

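Molecular chaperones help proteins fold, assemble and refold after stress, and each compartment of the cell has its own set. In the cytosol, HSP70 proteins are loaded with clients by J-domain proteins (the DNAJ genes) and reset by exchange factors of the HSP110 family, HSP90 proteins finish the folding of kinases and receptors, and the ring-shaped chaperonin TRiC folds actin and tubulin. The endoplasmic reticulum (ER) uses HSPA5 (BiP), HSP90B1 (GRP94) and its own J-domain proteins for secreted and membrane proteins, with SERPINH1 (HSP47) for collagen, and the mitochondrion uses HSPA9, HSPD1 and HSPE1. Heat shock factors, a family that includes HSF1 and HSF2, control many of the cytosolic genes, and the unfolded protein response controls many of the ER genes. The roles given below are those known from vertebrates, mostly from mammals.

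The genes described here were chosen by symbol: all probe sets of the array whose platform symbol belongs to the HSP, HSBP1, DNAJ or CCT families, or is TCP1, HSF2, SERPINH1 or CRELD2. This gave 152 of 38535 probe sets, of which 151 stand for 1 gene each and cover 77 genes, and the other is shared by DNAJC19 and a second gene and was not named. HSF1 and DNAJB1, for which the platform's symbols gave no probe set, were not analysed here. The genes were sorted by hand into 6 groups from the known location of their proteins: 16 of the ER, 32 of the cytosol and nucleus, 8 subunits of TRiC, 8 of the mitochondrion, 3 transcription regulators and 10 of vesicles or of other or unclear location.

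Expression was compared between 2 stably transfected forms of PR9692, a chicken sarcoma cell line of the CC.R1 strain: cells with a short hairpin RNA (shRNA) against HOPX, described as non-metastatic, and cells with a control shRNA, described as metastatic. HOPX codes for a small homeodomain protein that does not bind DNA itself. Each form was measured on 2 Affymetrix arrays, 4 in all, and both forms were grown at 40 °C, close to the body temperature of a chicken. The labels speak of biological replicates without stating separate cultures, and do not state whether a form was a clone or a pool, so the p-values measure only the spread between these arrays, whose number limits the precision.

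All levels are deposited log2 probe set values, and every difference is anti-HOPX minus control on that scale. A probe set was tested with limma if its mean over the 4 arrays was at least 4, a gene was represented by its brightest tested probe set, and a gene rose or fell if its adjusted p was under 0.05. Of the 77 genes, 62 were tested. The 15 others had no probe set with a mean of 4 and lay between 1.82 and 4.28 on all arrays. They were the small heat shock proteins HSPB2, HSPB3, HSPB7, HSPB7L and HSPB8, and the J-domain genes DNAJB2, DNAJB8, DNAJB13, DNAJC5B, DNAJC6, DNAJC7, DNAJC12, DNAJC22, DNAJC24 and DNAJC27. Their levels were near the background of the arrays.

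Array medians lay between 3.12 and 3.15. Over the 62 genes the median absolute gap between replicates was 0.28 in anti-HOPX cells and 0.13 in control cells. HOPX itself read under 4 on all arrays (3.21 and 3.54 in anti-HOPX cells and 3.23 and 3.72 in control cells for its brighter probe set), so it gave no check of the labels. The differences of the common reference genes were 0.05 for ACTB and 0.03 for GAPDH. Of 12 mesenchymal or fibroblast markers 10 reached a mean of 4, with vimentin and fibronectin the brightest, while COL1A2 and PDGFRA did not. None of the 4 epithelial, 4 blood and 4 skeletal muscle markers on the array did, and 1 of 3 endothelial markers (PECAM1) did. The summed log2 level of the 12 mesenchymal markers was 118.1 and 121.5 in anti-HOPX cells and 115.3 and 117.1 in control cells. COL1A1, the chain of a collagen that SERPINH1 binds, rose by 1.73 (limma adjusted p = 0.0020) and PRRX1 by 0.64 (adjusted p = 0.038). COL5A1 (1.03) and PDGFRB (0.88) did not pass, and TWIST1 (-0.43), COL3A1 (-0.20) and VIM (-0.08) were on the other side. The part of these markers in the results was not tested.

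Most chaperone genes did not pass the test, and those that did moved in both directions. SERPINH1 and HSP90AB1 rose in the anti-HOPX cells, while HSP90B1 and HSPA12A fell. Both SERPINH1 and HSP90AB1 had only 1 tested probe set, so their rises could not be compared with another probe set. HSBP1L1 also passed, as lower, but it reached the filter mean only through the control cells. Its call therefore carries no weight as a test, and the gene is described apart. Of the 62 genes 3.23% were called higher, against 3.63% of all 7691 tested genes, and 4.84% lower, against 5.24% of all tested genes. Without HSBP1L1 the share called lower was 3.28% of 61 genes, but no gene of this kind was left out of the share of all genes. The shares of the 62 genes lay near those of all genes, so the family as a whole did not stand apart by its number of changed genes. The median difference of the 62 genes was -0.06, against 0.02 for all tested genes. Counted as probe sets, 3 of the 107 tested probe sets of 1 gene were higher and 6 lower, 8.41% in all, and 3 higher and 4 lower of 105 without HSBP1L1. Among these 4 is the second probe set of HSPA12A, whose anti-HOPX mean was also under the filter mean. Of all tested probe sets 3.12% were higher and 4.54% lower, 7.66% in all.

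**Figure D1:**
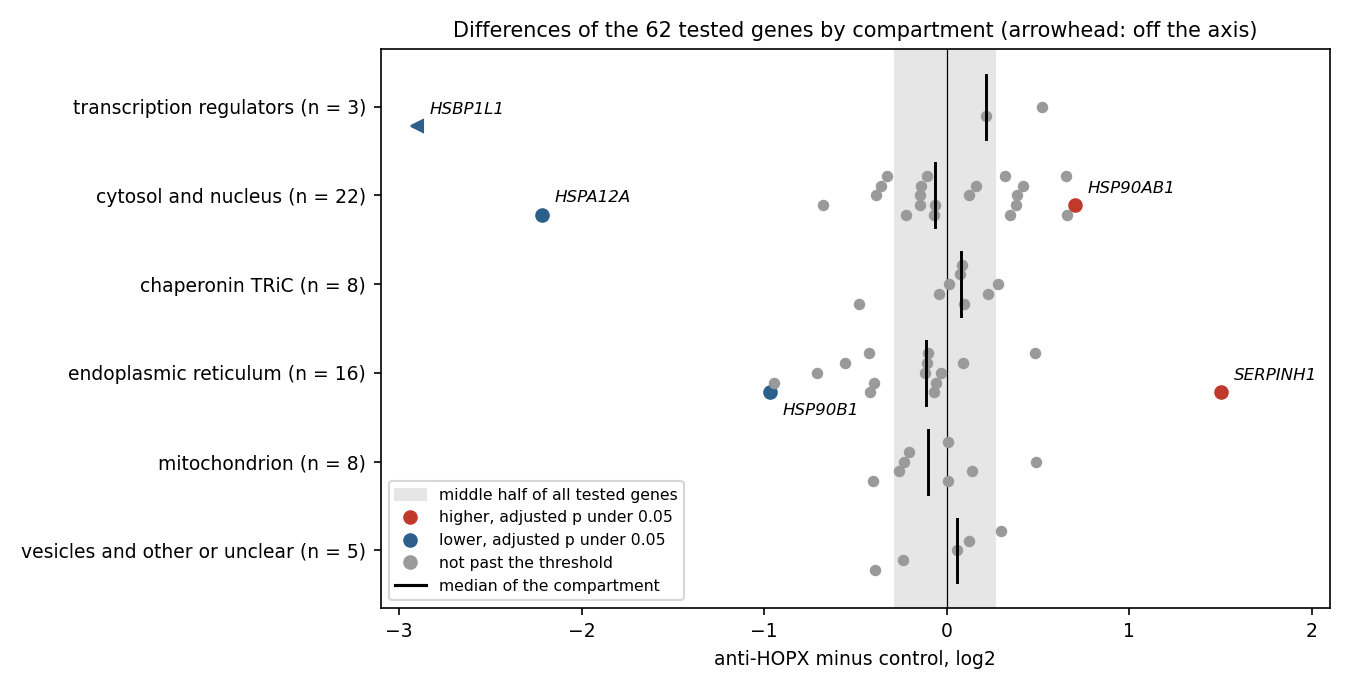
Difference between the forms (horizontal axis, log2, anti-HOPX minus control) of each of the 62 tested genes, by compartment; each point is a gene's brightest probe set, black lines are medians, and the grey band spans the differences of all tested genes from the 25th percentile (-0.28) to the 75th (0.27). The genes past the threshold are SERPINH1 and HSP90AB1 on the right and HSP90B1, HSPA12A and HSBP1L1 on the left. HSBP1L1 is drawn as an arrowhead at the edge because its difference lies off the axis. Its anti-HOPX values lie under 4 and allow only a bound.

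In the ER, the collagen chaperone SERPINH1 rose, HSP90B1 fell, and the other 14 genes did not pass. SERPINH1, which binds the procollagen triple helix and escorts it to the Golgi, read 13.10 and 13.58 in anti-HOPX cells and 11.90 and 11.77 in control cells. Both anti-HOPX arrays were higher than both control arrays, a rise of 1.50 (SE 0.18, limma adjusted p = 0.012), or 2.84-fold. HSP90B1, the HSP90 protein of the ER, which folds integrins and growth factors among other clients, read 12.10 and 11.84 in anti-HOPX cells and 12.87 and 13.00 in control cells. It fell by 0.97 (SE 0.13, limma adjusted p = 0.017), or 1.96-fold, and its arrays did not overlap. The other probe set of HSP90B1 differed by less, at -0.51, and did not pass (SE 0.17, limma adjusted p = 0.14).

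Set against each other within an array, SERPINH1 stood above HSP90B1 by 1.005 and 1.74 in anti-HOPX cells, and below it, at -0.97 and -1.24, in control cells. These are differences between 2 probe sets, so only the shift between the forms, 2.47, can be read, and the pair was chosen after its values were seen. Neither gene was called when either control array was left out, and far fewer of all tested genes were called there as well. The cause of these lost calls was not tested. SERPINH1 missed the threshold once control replicate 1 (1.57, adjusted p = 0.11) or control replicate 2 (1.44, adjusted p = 0.14) was dropped. HSP90B1 missed it likewise, at -1.03 (adjusted p = 0.16) with the first dropped and -0.90 (adjusted p = 0.19) with the second dropped.

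**Figure D2:**
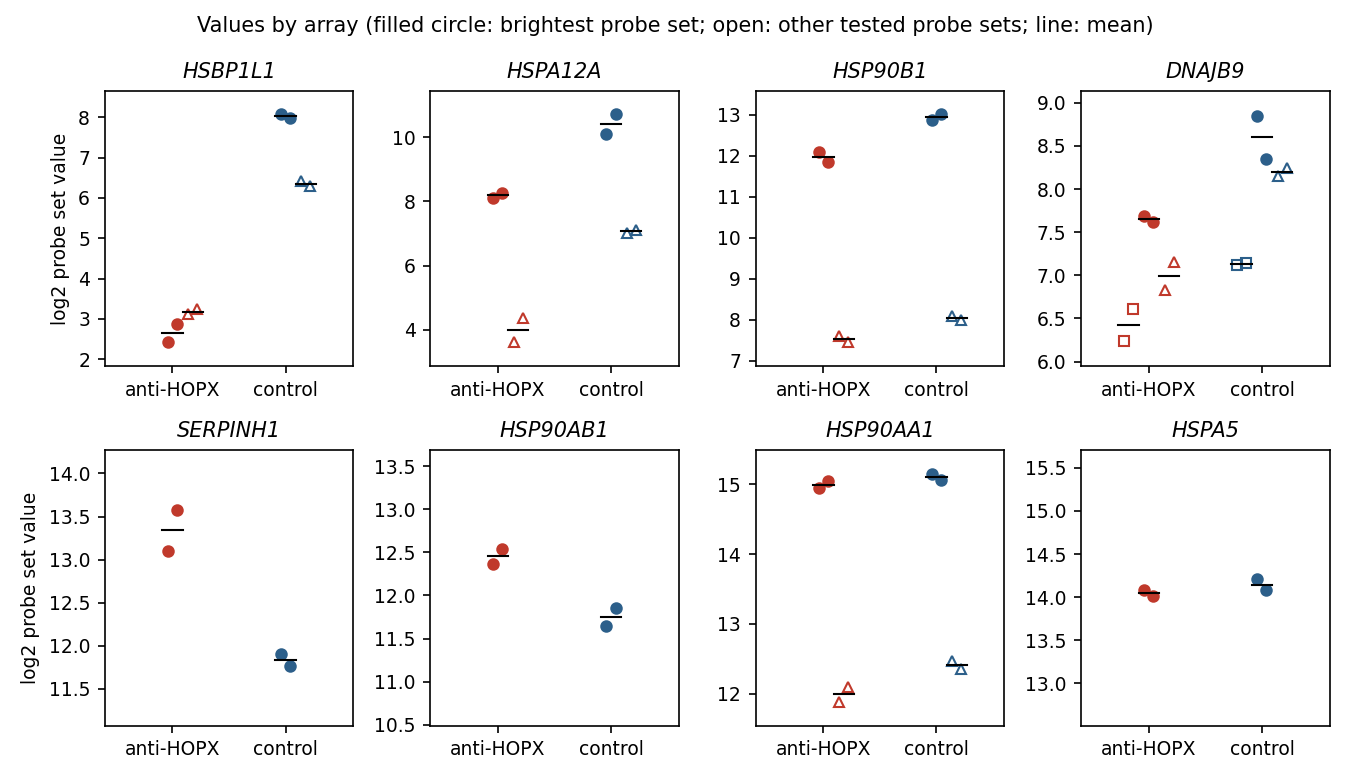
Log2 probe set values (vertical axes) on the 2 anti-HOPX arrays (red) and the 2 control arrays (blue) for 8 genes; filled circles are the brightest probe set, open symbols the other tested probe sets, and lines are means of 2 arrays. SERPINH1 and HSP90AB1 lie higher in anti-HOPX cells, HSBP1L1, HSPA12A, HSP90B1 and DNAJB9 lie lower, and HSPA5 lies at 14.08 and 14.01 in anti-HOPX cells against 14.21 and 14.08 in control cells.

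HSPA5, the HSP70 of the ER and the best known target of the unfolded protein response, read 14.08 and 14.01 in anti-HOPX cells and 14.21 and 14.08 in control cells. The brighter anti-HOPX array lay just under the dimmer control array, and the difference was -0.10 (95% interval -0.33 to 0.13, limma adjusted p = 0.56). The level of HSPA5 is close to the top of the table's scale. Of the 135 tested genes with a mean of 14 or more, 2.22% were called in either direction, against 8.87% of all tested genes, and 7 of the 62 chaperone genes are among them. Whether differences are compressed at this level was not tested.

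None of the J-domain partners of HSPA5 passed on its brightest probe set. DNAJB9 (ERdj4), a J-domain protein that brings HSPA5 to the stress sensor IRE1, had 3 tested probe sets and all were lower. Its brightest read 7.69 and 7.62 in anti-HOPX cells and 8.85 and 8.35 in control cells, a difference of -0.95 (SE 0.22) that did not pass (limma adjusted p = 0.062). The second read 6.83 and 7.15 in anti-HOPX cells and 8.15 and 8.25 in control cells and fell by 1.21 (SE 0.19, limma adjusted p = 0.026). The third differed by -0.71 (limma adjusted p = 0.11). None of the 3 probe sets overlapped between the forms. Of all tested genes 28.2% were lower without overlap on their brightest probe set. The 3 probe sets were read on the same arrays, so they are not independent measurements of the fall. By the mean of the gene's probe sets, DNAJB9 was called at -0.95 (limma adjusted p = 0.027).

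CRELD2, an ER protein induced by ER stress, read 9.01 and 8.69 in anti-HOPX cells and 9.51 and 9.61 in control cells, a difference of -0.71 (SE 0.17) just outside the threshold (limma adjusted p = 0.069). DNAJB11 (ERdj3), which hands unfolded clients to HSPA5, differed by -0.40 (limma adjusted p = 0.24). DNAJC10 (ERdj5), a disulfide reductase in ER-associated degradation, differed by -0.43 (limma adjusted p = 0.20), with a second probe set at -0.50. The membrane J-domain protein DNAJB12 differed by -0.56 (limma adjusted p = 0.16), and its other tested probe sets by -0.46 and -0.69. DNAJC16 differed by -0.42 (limma adjusted p = 0.48) on a bright probe set whose anti-HOPX arrays were 7.41 and 8.33, and by -0.69 (limma adjusted p = 0.082) on its second. DNAJC3 (p58IPK), an inhibitor of the kinase PERK that also assists HSPA5, differed by -0.06 and its arrays overlapped. DNAJC25 was on the other side, at 0.48 (limma adjusted p = 0.37).

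Over the 16 ER genes, 13 lay below 0, as did 3677 of all 7691 tested genes. In 9 both anti-HOPX arrays lay below both control arrays, 56.2% of the group against 28.2% of all tested genes. In the opposite direction 2 did not overlap, SERPINH1 and DNAJC25, 12.5% against 30.0% of all genes. After the test 1 of the 16 rose and 1 fell, 12.5% against 8.87% of all tested genes. An unadjusted p under 0.05 was found for 5 of them, 31.2% against 27.7% of all tested genes. The median was -0.11, small beside HSP90B1. The array medians, taken as deviations from the control mean, were -0.20 and -0.17 in anti-HOPX cells and 0.03 and -0.03 in control cells. The count below 0 fell to 9 of 16 when probe sets that can match several transcripts (names ending in _x_at, _s_at or _a_at) were left out, and was 10 of 16 with the probe sets of a gene averaged.

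**Figure D3:**
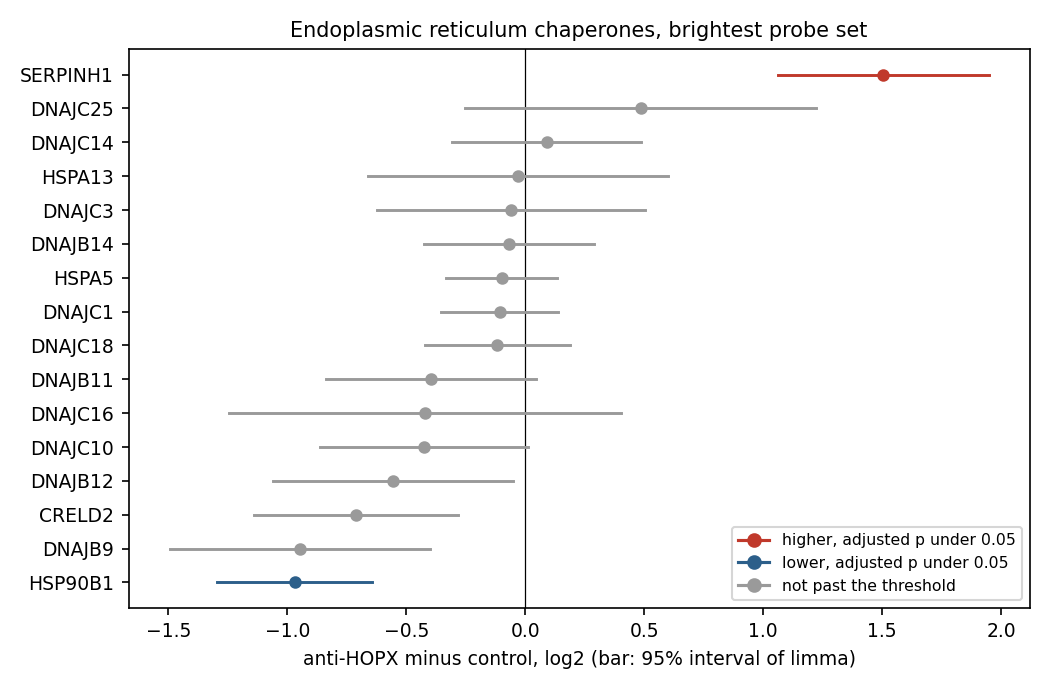
Difference between the forms (horizontal axis, log2, anti-HOPX minus control) of the 16 ER chaperone genes, ordered by size, with limma's 95% interval as a bar. SERPINH1 is the sole gene past the threshold on the right, HSP90B1 the sole gene past it on the left, and HSPA5 lies at -0.10.

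Other ER folding genes, from a list that leaves out the genes above, lay more often below 0 than above it, with few calls. Of 43 tested enzymes, lectins and degradation factors, 1 rose, 3 fell and 39 did not pass, 9.30% in all against 8.87% of all genes, with a median of -0.18. Below 0 lay 28 of the 43, as did 3677 of all 7691 tested genes. How this count changes with other choices of probe sets was not examined. Both anti-HOPX arrays lay below both control arrays in 41.9%, against 28.2% of all tested genes, and above them in 18.6%, against 30.0%. For CANX (12.17 and 11.14) and P4HB (14.40 and 13.70), anti-HOPX replicate 1 lay above the control mean and replicate 2 below it. For EDEM2 (11.04 and 11.49) the order was the reverse, so the sign of such genes depended on the array. FKBP7, a prolyl isomerase of the ER, read 10.91 and 10.51 in anti-HOPX cells and 12.21 and 12.19 in control cells. It fell by 1.49 (SE 0.16, limma adjusted p = 0.0093), a second probe set fell by 1.51, and another differed by -0.43 (limma adjusted p = 0.42). SDF2L1, a partner of DNAJB11 that is induced by ER stress, read 6.76 and 6.87 in anti-HOPX cells against 7.83 and 7.83 in control cells, and fell by 1.01 (limma adjusted p = 0.031). CRTAP, a subunit of the collagen prolyl 3-hydroxylase complex, fell by 0.81 (limma adjusted p = 0.042).

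EDEM1, a lectin that sends misfolded glycoproteins to degradation, rose by 0.69 (limma adjusted p = 0.044), and by 0.93 on its second probe set. The members not called with the largest differences were SIL1, the exchange factor of HSPA5 (-0.89, limma adjusted p = 0.078), ERP29 (-0.87, adjusted p = 0.18) and the disulfide isomerase PDIA5 (-0.78, adjusted p = 0.096). None of the calls in this list held without control replicate 1 or without control replicate 2. EDEM1 was also not called after quantile normalisation again (0.67, adjusted p just above the threshold) or without anti-HOPX replicate 1 (0.64, adjusted p = 0.055). CRTAP and EDEM1 were not called without the intensity trend either (adjusted p = 0.074 and 0.071). With a filter mean of 3 the calls of SDF2L1, CRTAP and EDEM1 were lost (limma adjusted p = 0.054, 0.072 and 0.062).

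The regulators and targets of the unfolded protein response, taken as 1 list, were mixed. Of 17 tested, 1 rose, 2 fell and 14 did not pass, 17.6% called against 8.87% of all tested genes, with a median of -0.23. XBP1, the transcription factor made active by IRE1, read 13.28 and 13.44 in anti-HOPX cells and 13.86 and 14.01 in control cells, and fell by 0.57 (SE 0.11, limma adjusted p = 0.041), or by 0.94 on its second probe set (adjusted p = 0.019). CREB3L2, a membrane-bound transcription factor that drives secretory and matrix genes, read 11.37 and 11.40 in anti-HOPX cells and 12.29 and 12.27 in control cells. It fell by 0.90 (SE 0.10, limma adjusted p = 0.011), and all 6 of its tested probe sets were lower, from -0.34 to -1.27. ERN1, which codes for IRE1 itself, went the other way. It read 9.79 and 9.84 in anti-HOPX cells and 9.11 and 9.001 in control cells and rose by 0.76 (SE 0.14, limma adjusted p = 0.036). WFS1 (-0.76, adjusted p = 0.077), CHAC1 (0.69, adjusted p = 0.11) and SEC62 (-0.41, adjusted p = 0.15) did not pass. With a filter mean of 3 neither XBP1 (limma adjusted p = 0.076) nor ERN1 (adjusted p = 0.053) was called. The same held with no filter on low values (adjusted p = 0.12 and 0.13) and without the intensity trend (adjusted p = 0.11 and 0.054). XBP1, CREB3L2 and ERN1 were not called without control replicate 1 (adjusted p from 0.17 to 0.26) or without control replicate 2 (0.17 to 0.33), and XBP1 was also not called without anti-HOPX replicate 1 (adjusted p = 0.053).

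**Figure D4:**
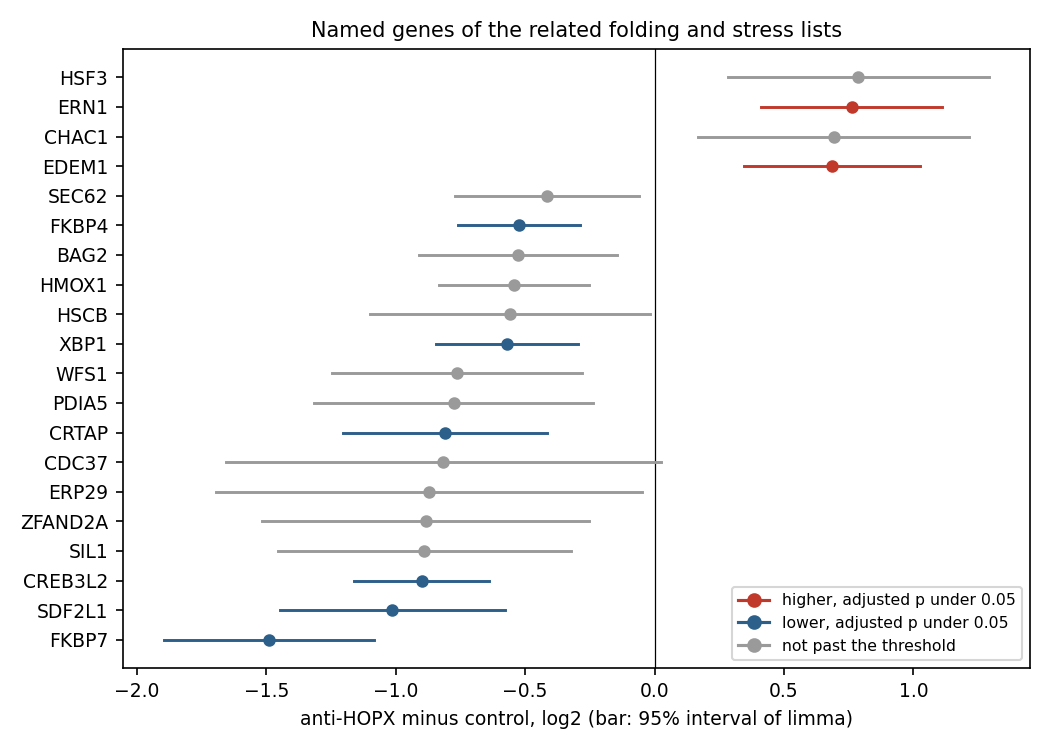
Difference between the forms (horizontal axis, log2, anti-HOPX minus control) of the 20 named genes of the related lists, with limma's 95% interval as a bar. ERN1 and EDEM1 are past the threshold on the right, and FKBP7, SDF2L1, CREB3L2, CRTAP, XBP1 and FKBP4 on the left.

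Of the HSP90 genes of the cytosol and nucleus HSP90AB1 rose and HSP90AA1 did not pass. HSP90AB1, the form made without stress, read 12.37 and 12.54 in anti-HOPX cells and 11.64 and 11.86 in control cells, with no overlap, and rose by 0.70 (SE 0.13, limma adjusted p = 0.037), or 1.63-fold. HSP90AA1, the stress-inducible form, read 14.95 and 15.04 in anti-HOPX cells and 15.15 and 15.06 in control cells, a difference of -0.11 (95% interval -0.32 to 0.10, limma adjusted p = 0.48). Its second probe set, farther from the top of the scale, read 11.88 and 12.09 in anti-HOPX cells and 12.47 and 12.36 in control cells, a difference of -0.43 (limma adjusted p = 0.10). Within an array HSP90AB1 minus HSP90AA1 was -2.59 and -2.50 in anti-HOPX cells and -3.51 and -3.20 in control cells, a shift of 0.81 between the forms. The pair was chosen after its values were seen, the difference between the genes was not tested, and HSP90AA1 is near the top of the scale. The rise of HSP90AB1 was lost when control replicate 1 (0.60, adjusted p = 0.29) or control replicate 2 (0.81, adjusted p = 0.20) was dropped, with a filter mean of 3 (adjusted p = 0.066) or without the intensity trend (adjusted p = 0.083).

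HSPA12A, an atypical HSP70 with a divergent ATPase domain, had the largest fall of the chaperone genes with all arrays above 4. It read 8.10 and 8.26 in anti-HOPX cells and 10.10 and 10.70 in control cells, and fell by 2.22 (SE 0.23, limma adjusted p = 0.0083), or 4.65-fold. Its second probe set read 3.61 and 4.37 in anti-HOPX cells against 7.03 and 7.12 in control cells. It was at least 7.41-fold lower with the value under 4 raised to 4. The anti-HOPX mean of this second probe set was just under 4, so it reached the filter mean through the control cells. Its call therefore carries no weight as a test. The call of the brighter probe set was lost without control replicate 2 (-1.92, adjusted p = 0.074).

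The other HSP70 genes of the cytosol did not pass. HSPA8, the constitutive HSP70, read 15.39 and 15.51 in anti-HOPX cells and 15.65 and 15.55 in control cells, a difference of -0.14 (95% interval -0.36 to 0.07). HSPA2 differed by -0.22 (limma adjusted p = 0.31) and HSPA14, which sits at the ribosome, by -0.36 (limma adjusted p = 0.37). Among the exchange factors, HSPA4 differed by 0.35 (limma adjusted p = 0.19), HSPH1 by -0.39 (limma adjusted p = 0.26) and HSPA4L by -0.15. Over all compartments 6 of the 7 tested HSP70 genes lay below 0, HSPA12A the farthest, and HSPA9 lay at 0.01. Of all 7691 tested genes 3677 lay below 0.

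The small heat shock protein HSPB1, which holds unfolding proteins and binds actin, read 12.10 and 12.41 in anti-HOPX cells and 11.50 and 11.70 in control cells. It did not overlap between the forms, but at 0.66 (SE 0.15) it stayed outside the threshold (limma adjusted p = 0.061). With a filter mean of 6, where 10.7% of all tested genes were called, HSPB1 was called (limma adjusted p = 0.046). HSPB9 read 12.48 and 13.24 in anti-HOPX cells and 12.56 and 13.28 in control cells, so that the arrays numbered 2 lay above those numbered 1 in both forms, by more than the forms differed (-0.06). Its second probe set had the same order, with 9.50 and 10.7 in anti-HOPX cells and 9.68 and 10.6 in control cells.

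Of the 30 tested J-domain genes of all compartments, none was called by limma on its brightest probe set, against 8.87% of all tested genes. An unadjusted p under 0.05 was found for 6 of them, 20% against 27.7% of all tested genes. In the cytosol DNAJB5 (0.66, limma adjusted p = 0.11) and DNAJC2, a ribosome-bound protein (-0.68, adjusted p = 0.20), lay farthest from 0. DNAJA1 differed by 0.38 (adjusted p = 0.26) and 0.68 (adjusted p = 0.085) on its probe sets, and DNAJB6, which suppresses aggregation, by 0.42 on its brightest and -0.07 on its dimmest. DNAJB4, DNAJA2, DNAJC8 and DNAJC9 lay between 0.12 and 0.38, and DNAJA4, DNAJC17 and DNAJC21 between -0.33 and -0.07. Over the 22 tested genes of the cytosol and nucleus, 1 rose, 1 fell and 20 did not pass, 9.09% called against 8.87% of all tested genes, and the median was -0.07. The sign of this median turned without control replicate 2 (0.08) and without anti-HOPX replicate 1 (0.08).

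All 8 subunits of TRiC were measured and none was called by limma, against 8.87% of all tested genes, with 1 at an unadjusted p under 0.05, or 12.5% against 27.7%. TCP1 read 15.21 and 15.38 in anti-HOPX cells and 15.12 and 15.28 in control cells, a difference of 0.10 (95% interval -0.16 to 0.35). CCT4, CCT5, CCT6A and CCT8 lay between -0.04 and 0.09, and CCT3 and CCT7 at 0.28 and 0.23 with 95% intervals that reach 1.08 and 0.74. CCT2 was apart from these. It read 12.87 and 13.28 in anti-HOPX cells and 13.53 and 13.57 in control cells, and differed by -0.48 (SE 0.15, limma adjusted p = 0.12). It was the sole subunit whose arrays did not overlap, so 12.5% of the 8 were lower in this way, against 28.2% of all tested genes. As higher the shares were 0% and 30.0%. Anti-HOPX replicate 2 read above anti-HOPX replicate 1 for all 8 subunits, and the median of the subunits was -0.13 on replicate 1 and 0.22 on replicate 2, both as deviations from the control mean.

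In the mitochondrion the chaperonin HSPD1 and its lid HSPE1, which are adjacent genes in the assembly GRCg7b, both lay lower without passing. HSPD1 read 13.73 and 14.0035 in anti-HOPX cells and 14.21 and 14.32 in control cells, a difference of -0.40 (limma adjusted p = 0.11), with a second probe set at -0.24. HSPE1 read 14.06 and 14.29 in anti-HOPX cells and 14.32 and 14.49 in control cells, a difference of -0.23 (limma adjusted p = 0.29). The genes on the sides of this pair, COQ10B (-0.73, limma adjusted p = 0.052) and MOB4 (-0.43, adjusted p = 0.32), also lay lower without passing. The HSP70 of the matrix, HSPA9, read 14.73 and 14.69 in anti-HOPX cells and 14.67 and 14.74 in control cells, a difference of 0.01 (95% interval -0.19 to 0.21). DNAJA3, the J-domain partner of HSPA9, was higher on all 3 of its tested probe sets, by 0.49 (limma adjusted p = 0.14), 0.32 and 0.38. None of the 8 tested mitochondrial genes was called by limma on its brightest probe set, against 8.87% of all tested genes, and 2 had an unadjusted p under 0.05, or 25% against 27.7%.

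DNAJC30, a mitochondrial J-domain protein, had tested probe sets that disagreed. Its brightest differed by -0.21 (limma adjusted p = 0.62) and its second by 0.19 (limma adjusted p = 0.61). The third read 7.34 and 7.35 in anti-HOPX cells against 6.08 and 6.08 in control cells and rose by 1.26 (SE 0.18, limma adjusted p = 0.019). No direction is given for this gene. Of the 34 chaperone genes with 2 or more tested probe sets, 24 had the same sign on all of them, and the median range of the differences within a gene was 0.23. Among the 10 others DNAJC30 had the widest range, 1.47.

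**Figure D5:**
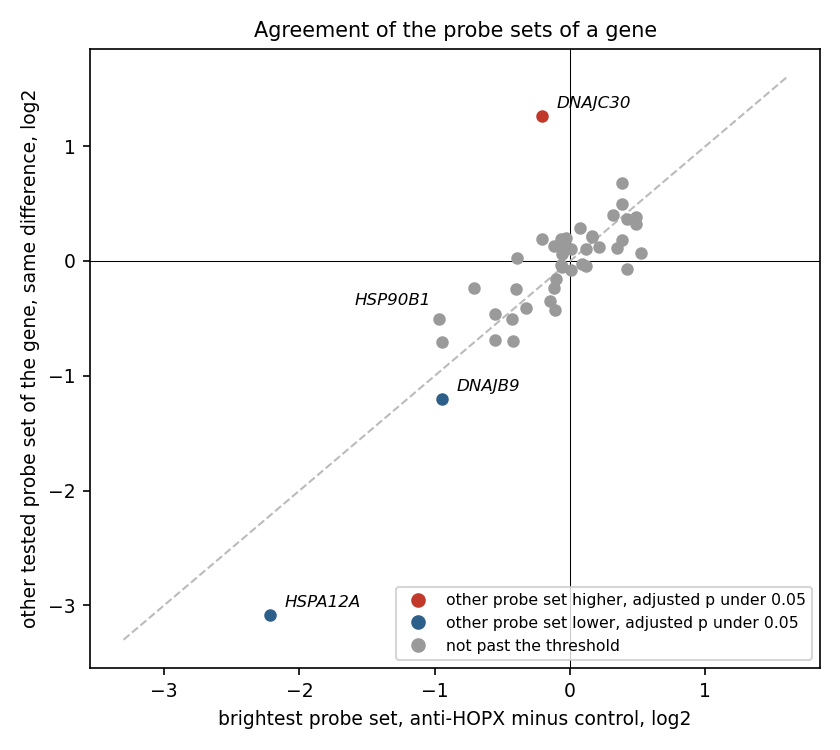
Difference between the forms (log2, anti-HOPX minus control) on the brightest probe set of a gene (horizontal axis) against that of each further tested probe set of the same gene (vertical axis), with the line of equality dashed; HSBP1L1, with anti-HOPX values under 4 on both probe sets, is not drawn. HSPA12A and DNAJB9 are lower on both axes, and a probe set of DNAJC30 stands alone at 1.26 with its brightest at -0.21. Of the 34 genes with 2 or more tested probe sets, HSBP1L1 included, 24 had the same sign on all of them. The further probe set of HSPA12A had an anti-HOPX mean just under 4.

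Among the transcription regulators HSF2 was measured and did not pass. It read 10.22 and 10.89 in anti-HOPX cells and 10.25 and 10.43 in control cells, with overlap, and differed by 0.22 (95% interval -0.38 to 0.81). HSBP1, a small protein that binds the trimers of HSF1, differed by 0.52 (limma adjusted p = 0.23) on its brightest probe set and by 0.07 on its second. HSBP1L1, a paralog of HSBP1 whose function is little known, reached the filter mean through the control cells alone, so its call carries no weight as a test. Its brightest probe set read 2.41 and 2.88 in anti-HOPX cells and 8.07 and 7.98 in control cells, and was at least 16.3-fold lower in anti-HOPX cells with values under 4 raised to 4. The other tested probe set of HSBP1L1 had 3.11 and 3.24 in anti-HOPX cells against 6.42 and 6.29 in control cells and was at least 5.11-fold lower. These were the sole tested chaperone probe sets with a form under 4 on both arrays. A further 2 probe sets of the gene were near the background in both forms.

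Of other heat shock regulators and targets 12 were tested, of which 0 rose, 1 fell and 11 did not pass, 8.33% called against 8.87% of all tested genes. An unadjusted p under 0.05 was found for 5 of the 12, a larger share than the 27.7% of all tested genes. HSF3, a heat shock factor of birds, read 10.29 and 10.74 in anti-HOPX cells and 9.59 and 9.86 in control cells. It differed by 0.79 without passing (SE 0.20, limma adjusted p = 0.079), while 0.62 and -0.10 were found on further probe sets. The stress-induced genes ZFAND2A (-0.88, limma adjusted p = 0.10) and HMOX1 (-0.54, adjusted p = 0.052) lay on the other side without passing. HMOX1 was called with a filter mean of 6 (limma adjusted p = 0.041) and after quantile normalisation again (adjusted p = 0.049). FKBP4, a co-chaperone of HSP90 that carries steroid receptors, read 13.19 and 13.25 in anti-HOPX cells and 13.69 and 13.79 in control cells and fell by 0.52 (SE 0.09, limma adjusted p = 0.035). It was the sole call among the 35 tested co-chaperones and prefoldin subunits as well, 2.86% against 8.87% of all tested genes. In that list, with a median of 0.00, CDC37 (-0.82, adjusted p = 0.21), HSCB (-0.56, adjusted p = 0.19) and BAG2 (-0.53, adjusted p = 0.10) were the largest differences not called. FKBP4 was not called with a filter mean of 3 (limma adjusted p = 0.062) or with no filter on low values (adjusted p = 0.087). Nor was it called without the intensity trend (adjusted p = 0.11). The call of FKBP4 was lost when control replicate 1 (-0.57, adjusted p = 0.25) or control replicate 2 (-0.48, adjusted p = 0.31) was dropped.

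The 5 tested genes of vesicles and of other or unclear location (DNAJC5, DNAJC13, DNAJC28, HSPB11 and HSPBAP1) lay between -0.39 and 0.30. None was called by limma, against 8.87% of all tested genes, and 0 had an unadjusted p under 0.05, against 27.7%. HSPB11 is a subunit of the transport complex of cilia and DNAJC5 a protein of synaptic vesicles, so both carry a family name without serving general folding.

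The positions of the 5 called genes were compared with their neighbours in GRCg7b, used for gene order only. Of the 10 adjacent protein-coding genes 6 were tested, of which 0 rose and 2 fell, while 3.63% of all tested genes rose and 5.24% fell. SLC29A1, next to HSP90AB1, fell by 1.72 (limma adjusted p = 0.018), opposite to the chaperone gene. C12orf73, next to HSP90B1, fell by 1.03 (limma adjusted p = 0.029), in the same direction. TXNL4A and PQLC1, on the sides of HSBP1L1, differed by 0.32 and -0.28 and did not pass, while HSBP1L1 itself was at least 16.3-fold lower.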

How the data were processed

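Per the labels' protocols, total RNA of cultured cells was made into biotin-labelled cRNA by the Affymetrix procedure. The deposited values are log2 values, 1 per probe set and array. Per the submitters' processing notes GCRMA and Partek 6.4 were used, without their roles. GCRMA pulls dim probe sets towards a floor and makes the arrays' distributions alike. No source used here gives its version or further filters.

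The 96 control probe sets were left out, and probe sets with a mean of at least 4 were kept (14851). The forms were compared with limma 3.58.1 in R 4.3.3 (lmFit, eBayes with trend, no replicate block, 2 residual degrees of freedom and 3.54 from the prior), two-sided, with Benjamini-Hochberg adjustment over all kept probe sets. Gene symbols are those of the platform annotation (symbols of all member genes matched GRCg7b). Named were all called members, the 12 largest not called and a fixed set of core chaperones; of each related list, all called and up to 3 not called. Others were added after their values were seen. Members and lists were chosen with earlier results of these data known. Alternatives were other filters, variance models, normalisations, thresholds and probe set choices, a replicate block, and leaving out each array.

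Deviations of equally numbered arrays from their form's mean correlated at 0.25 over the kept probe sets. The labels do not tie the numbers across forms, so they were not treated as pairs.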

Additional observations from a re-analysis of the deposited data

How the results depend on the processing

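The directions of SERPINH1, HSP90AB1, HSP90B1 and HSPA12A held in all 17 alternatives. Their differences ran from 1.27 to 1.74, 0.60 to 0.81, -1.10 to -0.74 and -2.65 to -1.92. Other filters, variance models or thresholds and the replicate block left these differences unchanged, so a direction could not turn there. HSPA12A was called in 15, SERPINH1 in 13, HSP90B1 in 12 and HSP90AB1 in 10. The cause of lost calls was not tested. The main counts were 2 chaperone genes higher and 3 lower, and 2 genes of the related lists higher and 6 lower. The counts of lower chaperone genes here and below include HSBP1L1, whose call carries no weight as a test. With no filter on low values the counts were 0 and 1, and 0 and 1, and the 1 chaperone gene was HSBP1L1. With a filter mean of 3 they were 1 higher among the chaperones, and 0 higher and 2 lower in the lists. Without the intensity trend they were 1 higher, and 0 higher and 3 lower. At an adjusted p under 0.01 they were 0 higher, and 0 higher and 1 lower. With at least a 2-fold change they were 1 higher, and 0 higher and 2 lower. After quantile normalisation again, 1 list gene was higher.

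With the replicate number as a block, 4 chaperone genes were higher and 7 lower, and 5 list genes higher and 17 lower, while 20.4% of all genes were called against 8.87%. With 2 arrays a form the block leaves fewer residual degrees of freedom, and the numbers do not pair the arrays by the labels. Leaving out each array in turn gave 0 to 4 chaperone genes higher and 1 to 7 lower, and 0 to 6 list genes higher and 0 to 13 lower. The low ends came without a control array, where 1.29% and 1.18% of all genes were called, and the high ends without an anti-HOPX array, where 12.1% and 13.6% were.

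Over these leave-outs the compartment medians ran from -0.145 to 0.0849 (cytosol and nucleus), -0.175 to 0.1323 (vesicles and other), -0.128 to 0.2193 (TRiC), -0.2002 to -0.1605 (ER), -0.209 to -0.011 (mitochondrion) and -0.117 to 0.3041 (regulators). Without probe sets ending in _x_at, _s_at or _a_at the medians were 0.2831 for TRiC and 0.0102 for the mitochondrion, and 0.0104 for the mitochondrion with probe sets averaged.

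Signs turned only among genes not called. DNAJC3 was at 0.0605 without those probe sets and 0.0003 with probe sets averaged, and HSPA9 at -0.0236 after quantile normalisation again. Leaving out each array gave -0.1812 to 0.7473 for CCT3, -0.1374 to 0.308 for CCT4, -0.1185 to 0.1508 for CCT5, -0.2402 to 0.1554 for CCT6A, -0.0793 to 0.5364 for CCT7 and -0.1089 to 0.2549 for CCT8. It gave -0.8796 to 0.0374 for DNAJC16, -0.3128 to 0.1931 for DNAJC3, -0.117 to 0.5471 for HSF2 and -0.026 to 0.0465 for HSPA9.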
